A study of Mus musculus with 12 samples.

Results

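The endoplasmic reticulum (ER) chaperone and unfolded protein response genes examined here are 35 genes picked by name from a table of 54429 gene names. They comprise the chaperones and disulfide isomerases that fold secreted proteins, the sensors and transcription factors of the ER stress response, and the machinery of ER-associated degradation and of translocation into the ER. All 35 were found, on 36 of 54532 table rows. The extra row is a 105-base Ddit3 entry, listed at 0 in all 12 libraries, whose coordinates lie within the main Ddit3 gene. The genes are grouped by function, and the list was drawn up with earlier results of these data known.

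The libraries were made from total RNA of hyperplastic mammary gland tissue, which the sample titles call lesions; below, each sample is called a gland. The donors were FVB/N females carrying MIC, a transgene system in which doxycycline switches on the polyoma middle T oncogene and, on the same transcript, Cre recombinase, within mammary epithelial cells. Every group drank doxycycline at 2 mg/ml, and the titles carry a time of 2 weeks. There were 4 libraries from MIC Stat3 ko glands, 4 from MIC Chi3l1 ko glands and 4 from MIC WT glands. The numbers 1 to 4 within each group are used here for reference only. Each title carries its own library number, whose meaning is not given. All 3 groups therefore share the oncogene, the Cre and the doxycycline. Which Stat3 and Chi3l1 alleles the knockouts carry, the animals' ages and any pairing or batch are not given in the sources used here. Since Cre is made in oncogene-expressing epithelium, a conditional allele would remain intact in other cells of the gland. The labels do not say that the 4 libraries of a group came from separate animals, so p-values measure the spread between these libraries, which may be partly technical.

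Proteins bound for secretion enter the ER through the Sec61 channel, are glycosylated and folded by luminal chaperones, and are sent back to the cytosol for destruction when folding fails. When unfolded proteins build up, the sensors IRE1 (Ern1), PERK (Eif2ak3) and ATF6 raise the output of this machinery through the transcription factors XBP1, ATF4 and cleaved ATF6. IRE1 acts by splicing Xbp1 mRNA, a step that gene-level counts do not show. In the mammary gland, alveolar epithelium that makes milk carries a heavy secretory load. STAT3, a cytokine-activated transcription factor, and CHI3L1 (gene Chil1), a secreted chitinase-like glycoprotein, are the 2 genes removed.

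Stat3 ran from 12.2 to 18.7 FPKM (fragments counted per gene, divided by gene length and by a library total) in Stat3 ko glands, from 46.7 to 53.3 FPKM in Chi3l1 ko glands and from 46.2 to 49.7 FPKM in WT glands. Chil1 ran from 4.92 to 17.6 FPKM in Stat3 ko glands, from 0 to 0.0323 FPKM in Chi3l1 ko glands and from 107 to 212 FPKM in WT glands. Libraries held 16217143 to 22607123 counts. Mitochondrial genes took 4.79% and 3.37% of counts in Stat3 ko 1 and 2, 2.22% in Chi3l1 ko 2, and under 2% in the other 9 libraries. The 10 general epithelial genes, such as Epcam and Krt8, averaged 6.04 and 6.06 on the log2(FPKM + 1) scale in Stat3 ko 1 and 2, 7.09 and 7.26 in Stat3 ko 3 and 4, 6.95 to 7.32 in Chi3l1 ko glands and 6.96 to 7.57 in WT glands. None of the epithelial genes was at 0. Stat3 ko 1 and 2 thus stood apart from the other 10 libraries in epithelial gene level and in mitochondrial share.

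The 35 genes were abundant. Their mean level in WT glands ran from 4.41 FPKM for Ern1 to 502 FPKM for Calr, with 9 genes over 100 FPKM and 6 under 10 FPKM. None fell below 1 FPKM in any library, and the lowest count was 87 reads, for Derl3, so all 35 entered the test. Together they took 0.593%, 0.641%, 1.03% and 0.991% of all counts in Stat3 ko glands, against 1.35%, 1.11%, 1.37% and 1.44% in Chi3l1 ko glands and 1.41%, 1.33%, 1.25% and 1.39% in WT glands. Every Stat3 ko library lay below every library of the other 2 groups, and Stat3 ko 1 and 2 were the lowest. The genes also varied more among Stat3 ko glands: the median coefficient of variation over the 35 genes was 22.9% there, 11.1% in Chi3l1 ko glands and 8.26% in WT glands.

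**Figure D1:**
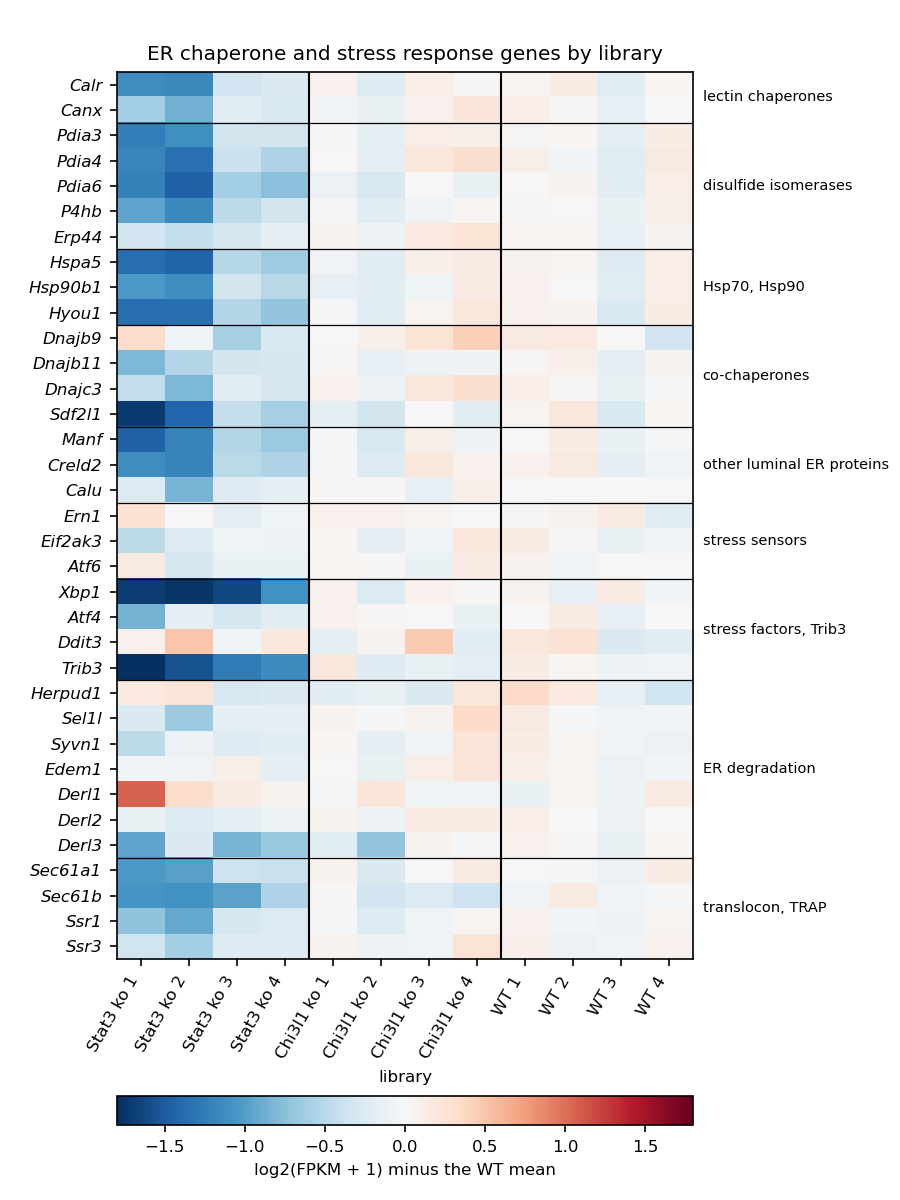
Level of each of the 35 genes (rows, grouped by role) in each of the 12 libraries (columns), as log2(FPKM + 1) minus the mean of the 4 WT libraries; blue is lower and red is higher than the WT mean. The Xbp1, Trib3, Hsp70, Hsp90, isomerase and lectin chaperone rows are blue in all 4 Stat3 ko libraries and darkest in Stat3 ko 1 and 2, whereas Dnajb9 and Derl1 are red in Stat3 ko 1. Chi3l1 ko columns are mostly pale.

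In Stat3 ko glands against WT glands, 21 of the 35 genes fell, 0 rose and 14 were not called (limma on log2(FPKM + 1), Benjamini-Hochberg adjusted p under 0.05 over 13643 tested genes). Over all tested genes the share called lower was 8.39% and the share called higher 5.61%. The median difference over the 35 genes was -0.49 on the log2 scale, beside -0.02 over all tested genes. For 25 of the 35 genes every Stat3 ko library lay below every WT library, a pattern that 11.6% of all tested genes had, and for 0 every Stat3 ko library lay above (9.67% of all tested genes). These are bulk libraries, in which fewer cells of a type and less RNA per cell cannot be told apart. Of the 21 calls, 8 held in every fit that left out 1 of the 12 libraries (Xbp1, Trib3, Hspa5, Pdia6, Hyou1, Manf, Creld2 and Sec61b), and the number of calls moved with the left-out library, as it did over all genes. It was 8 without WT 1 (3.02% of all tested genes called lower), 8 without WT 4 (3.99%), 12 without WT 2 (5.49%) and 13 without Stat3 ko 2 (4.8%). A fit of only the Stat3 ko and WT libraries called Pdia6, Hyou1, Manf, Xbp1, Trib3 and Sec61b alone among the 35, where 2.62% of all tested genes were called lower.

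**Figure D2:**
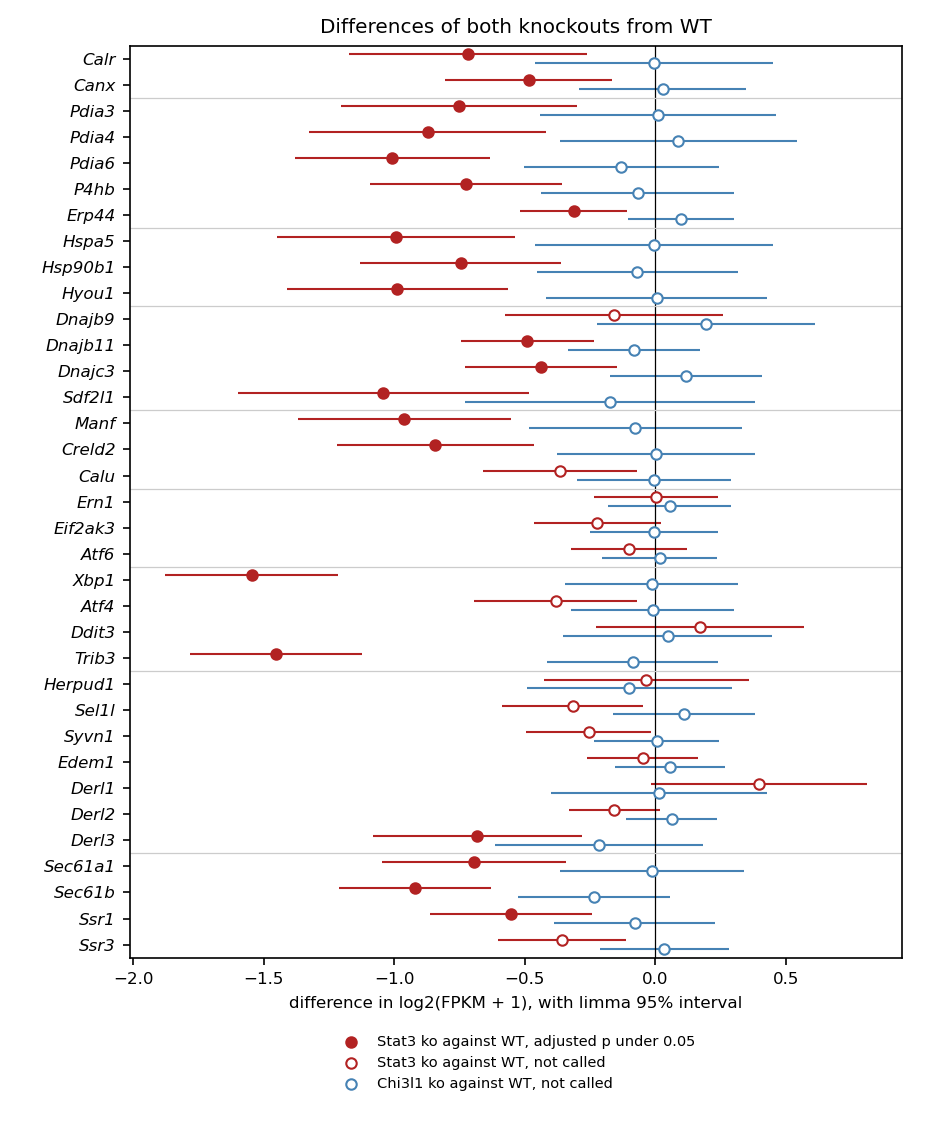
Difference in log2(FPKM + 1) of Stat3 ko glands from WT glands (red) and of Chi3l1 ko glands from WT glands (blue) for the 35 genes, in the same order as the roles above, with limma's 95% interval; filled points passed the adjusted p of 0.05. The 21 filled points are all Stat3 ko values below 0, and Chi3l1 ko points lie between -0.23 and 0.20.

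The 2 lowest of the 35 in Stat3 ko glands, relative to WT, were Xbp1 and Trib3. Xbp1 (ENSMUSG00000020484; GRCm38 chromosome 11, 5520659 to 5525893, plus strand), the transcription factor downstream of IRE1, was at 90.2, 87.9, 94.4 and 139 FPKM in Stat3 ko glands, against 314, 250.3, 314 and 303 FPKM in Chi3l1 ko glands and 310.2, 267, 328 and 286 FPKM in WT glands. Every Stat3 ko library was under the lowest library of the other groups, with Stat3 ko 4 the highest of the 4. The difference from WT was -1.55 ± 0.15 (SE), adjusted p = 0.000179, which leaves 34.5% of the WT mean. Trib3 (ENSMUSG00000032715; chromosome 2, 152337422 to 152344032, minus strand), a pseudokinase that ATF4 and CHOP induce under stress, was at 5.39, 6.75, 8.54 and 9.42 FPKM in Stat3 ko glands, against 25.1, 18.5, 20.0 and 19.4 FPKM in Chi3l1 ko glands and 24.1, 22.5, 20.6 and 20.7 FPKM in WT glands. Again no Stat3 ko library reached any other library, and the difference from WT was -1.45 ± 0.15 (SE), adjusted p = 0.000243. Atf4, the factor made when PERK slows translation, was at 49.8, 80.9, 72.8 and 78.9 FPKM in Stat3 ko glands, against 95.6, 92.0, 89.9 and 83.1 FPKM in Chi3l1 ko glands and 91.1, 101, 81.5 and 90.1 FPKM in WT glands. Its Stat3 ko libraries all lay below the WT range, but the difference of -0.38 ± 0.14 (SE) was not called (adjusted p = 0.0887). Ddit3, which encodes the death-promoting factor CHOP, was at 8.96, 12.3, 7.90 and 9.70 FPKM in Stat3 ko glands, against 7.42, 8.87, 12.1 and 7.23 FPKM in Chi3l1 ko glands and 9.77, 10.3, 6.89 and 7.17 FPKM in WT glands, with overlapping groups and adjusted p = 0.527 against WT.

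The 3 sensors were low and not called. Ern1 was at 5.48, 4.40, 3.78 and 4.09 FPKM in Stat3 ko glands, against 4.69, 4.70, 4.59 and 4.41 FPKM in Chi3l1 ko glands and 4.48, 4.61, 4.95 and 3.61 FPKM in WT glands. Its Stat3 ko and WT ranges overlapped, with a difference of 0.0036 ± 0.11 (SE) and a 95% interval of -0.23 to 0.24. Eif2ak3 was at 6.48, 7.68, 8.80 and 8.73 FPKM in Stat3 ko glands, against 9.55, 8.23, 8.89 and 10.7 FPKM in Chi3l1 ko glands and 10.6, 9.46, 8.52 and 8.88 FPKM in WT glands. Stat3 ko 3 and 4 lay within the WT range, and the difference was -0.22 ± 0.11 (SE), adjusted p = 0.182. Atf6 was at 7.80, 5.32, 6.21 and 6.21 FPKM in Stat3 ko glands, against 7.03, 6.95, 6.22 and 7.68 FPKM in Chi3l1 ko glands and 7.20, 6.52, 6.92 and 6.82 FPKM in WT glands. Stat3 ko 1 was the highest of all 12 libraries, and the 95% interval of the difference from WT was -0.32 to 0.12.

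**Figure D3:**
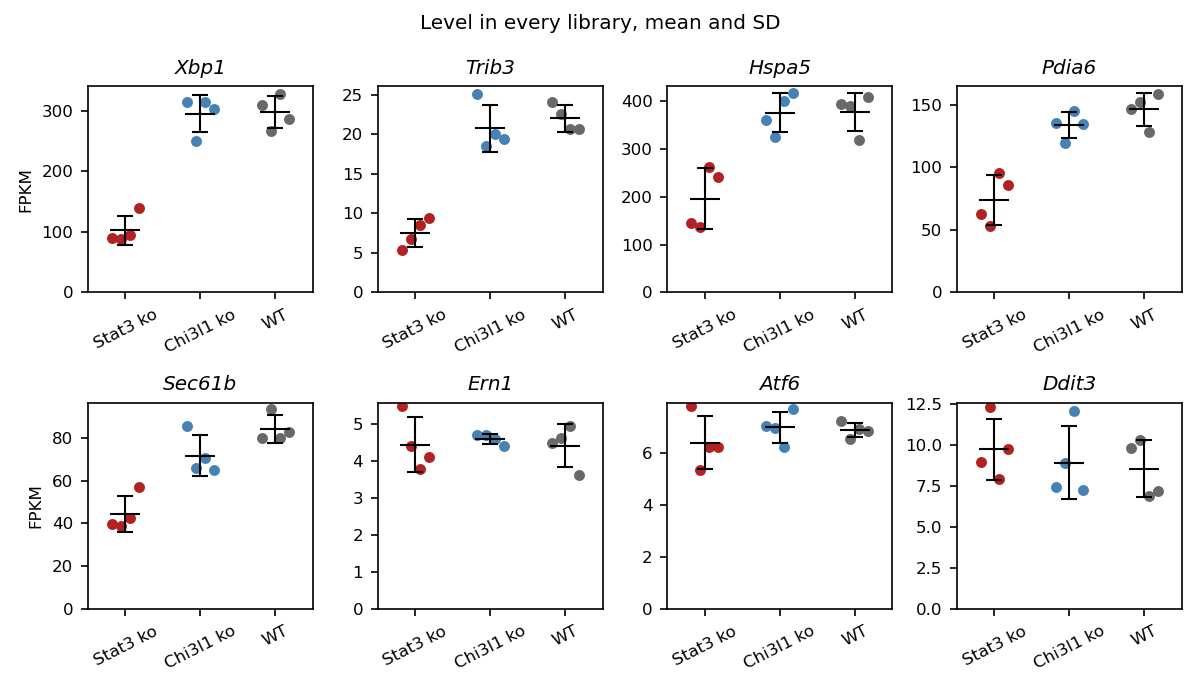
FPKM of 8 genes in each library (points), with the mean and SD of the 4 libraries of each group (black bars); each panel starts at 0 and has its own scale. For Xbp1, Trib3, Hspa5, Pdia6 and Sec61b the 4 Stat3 ko points lie below all points of the other groups, while for Ern1, Atf6 and Ddit3 the groups overlap.

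All 3 Hsp70 and Hsp90 chaperones fell in Stat3 ko glands. Hspa5 (ENSMUSG00000026864; chromosome 2, 34771970 to 34777547, plus strand), which encodes BiP, the main luminal Hsp70 and a brake on the sensors, was at 145, 137, 261 and 240.4 FPKM in Stat3 ko glands, against 360.3, 326, 400.2 and 417 FPKM in Chi3l1 ko glands and 393, 389, 318 and 408 FPKM in WT glands. The Stat3 ko libraries split into a lower pair, 1 and 2, and a higher pair, 3 and 4, all of them below WT 3, the lowest WT library. The difference from WT was -0.99 ± 0.21 (SE), adjusted p = 0.0139. Hyou1, a large Hsp70-like protein that exchanges nucleotide on BiP, was at 17.1, 17.1, 31.5 and 27.6 FPKM in Stat3 ko glands, against 45.0, 39.6, 47.4 and 52.2 FPKM in Chi3l1 ko glands and 48.2, 47.5, 37.7 and 50.2 FPKM in WT glands (difference from WT -0.99 ± 0.19 (SE), adjusted p = 0.0100). Hsp90b1, which encodes the ER Hsp90 GRP94, was at 112, 105, 183 and 162 FPKM in Stat3 ko glands, against 207, 199.5, 218 and 254 FPKM in Chi3l1 ko glands and 242, 231, 199 and 249 FPKM in WT glands (difference from WT -0.74 ± 0.18 (SE), adjusted p = 0.0214). Both had the same lower and higher pair of Stat3 ko libraries as Hspa5, with no overlap with WT glands.

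The 5 protein disulfide isomerases, which form and rearrange disulfide bonds, all fell. Pdia6 was at 62.3, 52.7, 95.6 and 86.1 FPKM in Stat3 ko glands, against 135, 119.7, 145 and 135 FPKM in Chi3l1 ko glands and 146, 153, 128 and 159 FPKM in WT glands. No Stat3 ko library overlapped another group, and the difference from WT was -1.01 ± 0.17 (SE), adjusted p = 0.00531. Pdia4 was at 54.1, 48.6, 95.1 and 84.8 FPKM in Stat3 ko glands, against 126, 112, 145 and 154 FPKM in Chi3l1 ko glands and 134, 121, 108 and 140.1 FPKM in WT glands. Pdia3, the isomerase that works with calreticulin and calnexin, was at 179, 198, 337 and 339 FPKM in Stat3 ko glands, against 419, 376, 463 and 459 FPKM in Chi3l1 ko glands and 429, 435, 375 and 466 FPKM in WT glands. P4hb, which encodes PDI itself, was at 173, 149, 243 and 267 FPKM in Stat3 ko glands, against 329, 291, 319.6 and 343 FPKM in Chi3l1 ko glands and 339, 335, 309 and 361 FPKM in WT glands. In these 3 genes Stat3 ko 1 and 2 were the lowest of the 12 libraries, and the differences from WT were -0.87 ± 0.21 (SE) for Pdia4, -0.75 ± 0.21 (SE) for Pdia3 and -0.73 ± 0.17 (SE) for P4hb. Erp44, which retrieves client proteins from the early Golgi, was at 21.7, 20.2, 22.4 and 24.5 FPKM in Stat3 ko glands, against 29.1, 26.1, 31.5 and 33.0 FPKM in Chi3l1 ko glands and 28.8, 28.5, 25.0 and 28.9 FPKM in WT glands. Its groups did not overlap either, though Stat3 ko 4 and WT 3 were close, and its difference of -0.31 ± 0.09 (SE) was the smallest among the 21 calls (adjusted p = 0.0465).

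Both lectin chaperones, which hold glycoproteins through their sugar, fell. Calr was at 231, 224, 392 and 419 FPKM in Stat3 ko glands, against 528, 426, 542 and 507 FPKM in Chi3l1 ko glands and 516, 548, 430.3 and 514 FPKM in WT glands. Canx was at 68.1, 57.0, 91.0 and 86.0 FPKM in Stat3 ko glands, against 101, 95.0, 110.4 and 122 FPKM in Chi3l1 ko glands and 114, 106, 94.4 and 104 FPKM in WT glands. Stat3 ko 3 and 4 came close to the lowest WT library in both genes, and the differences from WT were -0.72 ± 0.21 (SE) for Calr (adjusted p = 0.0422) and -0.49 ± 0.15 (SE) for Canx (adjusted p = 0.0477).

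Of the 4 co-chaperones, 3 fell. Sdf2l1, which partners ER Hsp40 proteins, was at 25.1, 31.1, 63.2 and 56.3 FPKM in Stat3 ko glands, against 76.1, 67.9, 84.9 and 74.1 FPKM in Chi3l1 ko glands and 87.8, 98.1, 70.3 and 87.2 FPKM in WT glands. Stat3 ko 1 had the lowest level of the 12 libraries, and the difference from WT was -1.04 ± 0.25 (SE), adjusted p = 0.0242. Dnajb11, an Hsp40 of BiP, was at 24.8, 30.6, 35.3 and 36.0 FPKM in Stat3 ko glands, against 44.9, 39.9, 41.5 and 41.7 FPKM in Chi3l1 ko glands and 45.0, 47.6, 39.3 and 46.4 FPKM in WT glands (difference from WT -0.49 ± 0.12 (SE)). Dnajc3, another BiP co-chaperone, was at 32.2, 24.9, 38.6 and 35.6 FPKM in Stat3 ko glands, against 46.9, 41.6, 51.0 and 54.4 FPKM in Chi3l1 ko glands and 48.4, 45.2, 40.7 and 43.4 FPKM in WT glands (difference from WT -0.44 ± 0.13 (SE), adjusted p = 0.0495). Neither gene had a Stat3 ko library inside the WT range. Dnajb9, an Hsp40 that restrains IRE1, ran from 12.6 to 25.1 FPKM in Stat3 ko glands, from 19.8 to 26.9 FPKM in Chi3l1 ko glands and from 15.3 to 22.4 FPKM in WT glands, and was not called.

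Among the other luminal proteins, Manf and Creld2 fell. Manf, a secreted ER stress-induced factor, was at 20.7, 24.9, 40.6 and 36.6 FPKM in Stat3 ko glands, against 57.7, 47.7, 62.9 and 55.0 FPKM in Chi3l1 ko glands and 58.9, 64.7, 54.1 and 57.4 FPKM in WT glands. Creld2, an ER protein with disulfide isomerase activity, was at 31.0, 29.2, 48.5 and 46.4 FPKM in Stat3 ko glands, against 67.8, 57.5, 78.9 and 72.1 FPKM in Chi3l1 ko glands and 72.4, 76.7, 60.8 and 65.3 FPKM in WT glands. In both genes every Stat3 ko library lay below every library of the other 2 groups, and the differences from WT were -0.96 ± 0.19 (SE) for Manf (adjusted p = 0.00987) and -0.84 ± 0.17 (SE) for Creld2 (adjusted p = 0.0127). Calu, a calcium-binding protein, ran from 41.4 to 66.7 FPKM in Stat3 ko glands, from 66.8 to 79.0 FPKM in Chi3l1 ko glands and from 73.9 to 74.9 FPKM in WT glands, and was not called (adjusted p = 0.0848).

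In the translocation machinery, 3 of 4 genes fell. Sec61b, a small subunit of the channel, was at 39.6, 38.9, 42.5 and 56.9 FPKM in Stat3 ko glands, against 85.6, 65.9, 70.6 and 65.1 FPKM in Chi3l1 ko glands and 80.3, 93.8, 80.2 and 83.0 FPKM in WT glands. The 4 Stat3 ko libraries lay below all others, and the difference from WT was -0.92 ± 0.13 (SE), adjusted p = 0.00225. Sec61a1, which forms the pore, was at 20.1, 21.1, 32.3 and 32.0 FPKM in Stat3 ko glands, against 44.5, 35.3, 42.1 and 47.0 FPKM in Chi3l1 ko glands and 42.6, 41.5, 39.3 and 46.3 FPKM in WT glands (difference from WT -0.70 ± 0.16 (SE), adjusted p = 0.0201). Ssr1, a subunit of the translocon-associated TRAP complex, was at 15.9, 13.9, 21.4 and 22.6 FPKM in Stat3 ko glands, against 26.4, 22.6, 25.5 and 27.9 FPKM in Chi3l1 ko glands and 28.6, 26.1, 25.4 and 28.1 FPKM in WT glands (difference from WT -0.55 ± 0.14 (SE)). Stat3 ko 4 overlapped Chi3l1 ko 2 for Ssr1, but not the WT range. Ssr3, another TRAP subunit, was at 65.7, 54.8, 71.8 and 71.9 FPKM in Stat3 ko glands, against 88.2, 79.3, 79.9 and 100.4 FPKM in Chi3l1 ko glands and 90.0, 78.6, 80.6 and 88.9 FPKM in WT glands. All its Stat3 ko libraries lay below the other groups, and the call was missed against WT (adjusted p = 0.0551) and made against Chi3l1 ko glands (adjusted p = 0.0424).

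The ER-associated degradation genes gave 1 call of 7 against WT. Derl3, a derlin of secretory cells, was at 2.62, 4.89, 2.94 and 3.37 FPKM in Stat3 ko glands, against 5.09, 3.29, 6.36 and 5.93 FPKM in Chi3l1 ko glands and 6.40, 6.10, 5.44 and 6.16 FPKM in WT glands. Stat3 ko glands lay below the WT range but overlapped Chi3l1 ko 2, and the difference from WT was -0.68 ± 0.18 (SE), adjusted p = 0.0330. Sel1l, the scaffold of the HRD1 ubiquitin ligase, was at 18.7, 13.9, 19.9 and 20.0 FPKM in Stat3 ko glands, against 23.6, 22.3, 23.5 and 29.1 FPKM in Chi3l1 ko glands and 25.3, 22.0, 21.5 and 21.8 FPKM in WT glands. It lay below both other groups in all 4 Stat3 ko libraries, with adjusted p = 0.0998 against WT and 0.0440 against Chi3l1 ko glands. The ligase itself, Syvn1, ran from 16.4 to 21.5 FPKM in Stat3 ko glands, from 20.4 to 27.4 FPKM in Chi3l1 ko glands and from 21.5 to 25.6 FPKM in WT glands, and was not called (adjusted p = 0.126). Herpud1, which organises the same ligase complex, ran from 28.2 to 40.5 FPKM in Stat3 ko glands, from 28.6 to 39.8 FPKM in Chi3l1 ko glands and from 26.6 to 43.9 FPKM in WT glands. Edem1, which marks misfolded glycoproteins for disposal, ran from 20.6 to 25.1 FPKM in Stat3 ko glands, from 21.2 to 27.6 FPKM in Chi3l1 ko glands and from 21.7 to 25.1 FPKM in WT glands. Derl2, another derlin, ran from 7.06 to 7.96 FPKM in Stat3 ko glands, from 7.97 to 9.57 FPKM in Chi3l1 ko glands and from 7.84 to 9.41 FPKM in WT glands. These 3 genes overlapped between Stat3 ko and WT glands, with differences of -0.03 ± 0.18 (SE) for Herpud1, -0.05 ± 0.10 (SE) for Edem1 and -0.16 ± 0.08 (SE) for Derl2, and none was called. Derl1 had the highest positive difference of the 35, 0.40 ± 0.19 (SE) (adjusted p = 0.161). Stat3 ko 1 was at 70.0 FPKM, while the other 3 Stat3 ko libraries ran from 34.5 to 41.4 FPKM, Chi3l1 ko glands from 31.3 to 38.6 FPKM and WT glands from 30.5 to 37.0 FPKM.

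XBP1 and ATF6 act through the ER stress response element (ERSE), CCAAT and CCACG with 9 free bases between them, and its short form ERSE-II, ATTGG and CCACG with 1 free base between them. Both were searched on both strands from 250 bases before to 50 bases after the RefSeq start of each gene (GRCm38.p6). Of the 35 genes, 30 had a RefSeq promoter entry. ERSE was in 9 of these 30 (30%), against 0.119% of 32851 promoters, and ERSE-II in 2 of 30 (6.67%), against 0.0365%. The 30 are counted by gene and the 32851 by promoter entry. The genes were picked by name as genes of this response, so a high share was built into the list. It is not a result about the knockouts. No gene of the 30 held both ERSE and ERSE-II. No match of one element overlapped a match of another. The windows below show the element in its place in the genes whose levels are given above; the fixed letters of each element are in capitals, and where ERSE lies on the opposite strand they read CGTGG and ATTGG. The genes shown fell in Stat3 ko glands, except the last 2, Syvn1 and Herpud1, which were not called and were picked for that after their values were seen.
Hspa5, chr2:34772010-34772058 (plus strand): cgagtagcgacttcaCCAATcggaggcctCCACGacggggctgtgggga
Pdia6, chr12:17266476-17266524 (plus strand): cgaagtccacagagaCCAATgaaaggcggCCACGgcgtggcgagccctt
Creld2, chr15:88819505-88819553 (plus strand): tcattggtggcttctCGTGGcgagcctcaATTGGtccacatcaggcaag
Hsp90b1, chr10:86705623-86705671 (minus strand): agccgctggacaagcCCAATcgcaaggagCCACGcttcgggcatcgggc
Hsp90b1, chr10:86705518-86705566 (minus strand): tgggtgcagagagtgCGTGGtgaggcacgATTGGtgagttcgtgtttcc
Calr, chr8:84847060-84847108 (minus strand): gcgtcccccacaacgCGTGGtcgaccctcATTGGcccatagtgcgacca
Canx, chr11:50325785-50325833 (minus strand): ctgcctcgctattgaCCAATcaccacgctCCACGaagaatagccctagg
Derl3, chr10:75893227-75893275 (plus strand): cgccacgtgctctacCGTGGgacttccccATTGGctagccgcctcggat
Dnajb11, chr16:22857837-22857862 (plus strand): atgtccccggcggcgATTGGcCCACG
Syvn1, chr19:6046517-6046565 (plus strand): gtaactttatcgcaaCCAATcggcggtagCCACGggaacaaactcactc
Herpud1, chr8:94386362-94386402 (plus strand): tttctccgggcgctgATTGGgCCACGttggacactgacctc

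Dnajc3 also held ERSE. Hsp90b1 carried 2 copies, and the Dnajb11 window ends at the element, 18 bases past the start. Among the 20 genes with a promoter entry that were called in at least 1 comparison, 8 held ERSE and 1 held ERSE-II. Among the 10 that were not called, 1 held ERSE and 1 held ERSE-II. These counts are small, and the split was not tested. Other elements were sparse in these promoters. The ATF4 element core TGATGNAA was in Herpud1 and Trib3, 2 of 30 genes (6.67%), against 3.97% of all promoters. The XBP1 core TGACGTGG was in 0 of 30, against 0.676%, and the STAT palindrome TTCNNNGAA was in Eif2ak3 alone, 1 of 30 (3.33%), against 8.30%. A match is a run of letters in this window and does not show that a factor binds there.

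Other lists of the secretory pathway were set beside the 35 genes for Stat3 ko against WT glands. Over all tested genes 8.39% were called lower and 5.61% higher. Of 20 N-glycosylation and glucosidase genes, 11 fell and 0 rose, with a median log2 difference of -0.44. They included Ostc (-0.79), Ddost (-0.74), Rpn1 (-0.67) and Stt3a (-0.59), subunits of the oligosaccharyltransferase that attaches the sugar. Of 19 other translocation and signal peptidase genes tested, 9 fell and 0 rose, with a median of -0.38, among them the TRAP subunits Ssr2 (-0.74) and Ssr4 (-0.40), the channel subunit Sec61g (-0.75) and Srp19 (-0.52) of the signal recognition particle. Of 35 ER exit, retrieval and coat genes, 15 fell and 0 rose, with a median of -0.32. Surf4, a cargo receptor of the ER, averaged 92.3 FPKM in Stat3 ko glands and 169 FPKM in WT glands (log2 difference -0.89 ± 0.14 (SE), adjusted p = 0.00349). Sec16b, an ER exit site protein, averaged 5.18 FPKM in Stat3 ko glands and 10.9 FPKM in WT glands (log2 difference -0.96 ± 0.15 (SE), adjusted p = 0.00446).

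The folding and stress lists outside the 35 genes held fewer calls. Of 28 other ER folding enzymes and chaperones tested, 5 fell and 1 rose, with a median of -0.24. Prdx4, an ER peroxiredoxin, had a log2 difference of -0.71, and Rcn3, a calcium-binding ER protein, was the gene that rose, by 1.14. Of 12 other stress sensors and bZIP factors tested, 2 fell, Creb3l4 (-0.67) and Atf6b (-0.31), and the median was -0.23. Of 24 other ER-associated degradation genes, 2 fell, Selenos (-0.35) and Edem2 (-0.37), with a median of -0.11. That count lies near the share over all tested genes, 8.39% lower, so the 2 genes are given as values only. Of 24 integrated stress response genes tested, 1 fell, a share below that over all tested genes, with a median of -0.15. The gene was Slc3a2, a heavy chain of amino acid transporters, at 33.3 FPKM in Stat3 ko glands and 60.1 FPKM in WT glands (log2 difference -0.84 ± 0.10 (SE), adjusted p = 0.00065).

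**Figure D4:**
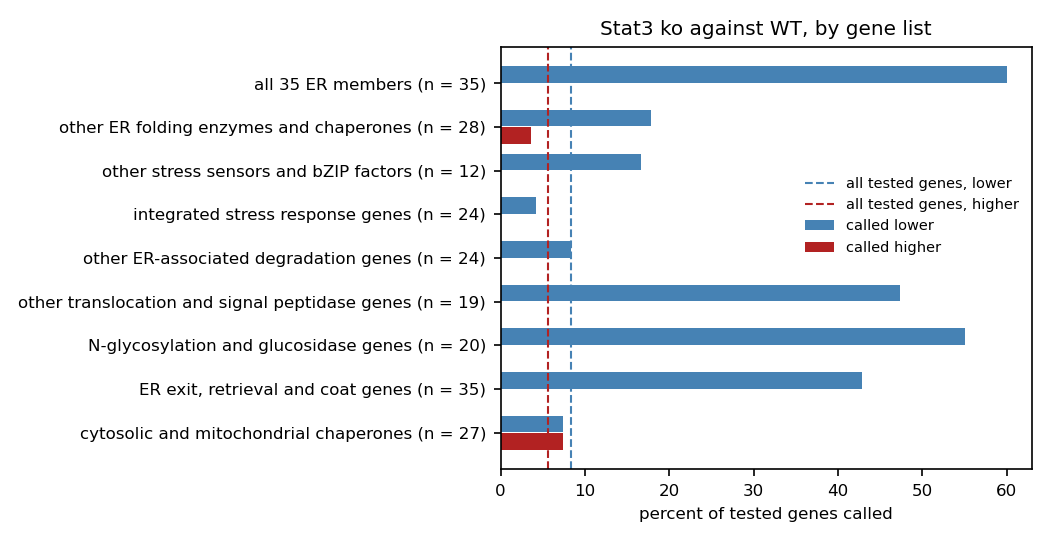
Percent of the tested genes of each list called lower (blue) or higher (red) in Stat3 ko glands against WT glands; dashed lines mark the shares over all 13643 tested genes, 8.39% lower and 5.61% higher. The 35 genes, N-glycosylation, translocation and ER exit lists lie far to the right of the blue line. The integrated stress response list lies to its left, and the other ER-associated degradation and the cytosolic and mitochondrial chaperone lists lie just left of it.

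Counts of cell type markers were read against the same shares over all tested genes, 8.39% lower and 5.61% higher. The 14 milk protein and alveolar genes summed to 569 to 1369 FPKM in Stat3 ko glands, 3688 to 4940 FPKM in Chi3l1 ko glands and 4007 to 5428 FPKM in WT glands. Of these, 7 of 14 fell in Stat3 ko glands against WT glands and 0 rose, with a median log2 difference of -1.57. The differences ran from -3.95 to 2.51, and 2 of 14 were positive. Lalba, a milk whey protein, averaged 98.7 FPKM in Stat3 ko glands and 1189 FPKM in WT glands. The 10 general epithelial genes summed to 1213 to 2945 FPKM in Stat3 ko glands, 2158 to 2913 FPKM in Chi3l1 ko glands and 2340 to 3482 FPKM in WT glands. Of these, 1 of 10, Elf3, was called lower, a share near that over all genes. Their median log2 difference was nevertheless -0.74, with 9 of 10 negative, beside a median of -0.49 over the 35 genes. Plasma cells are also rich in this machinery. Their 15 genes summed to 194 to 3013 FPKM in Stat3 ko glands, 109 to 428 FPKM in Chi3l1 ko glands and 147 to 1081 FPKM in WT glands. Of 13 tested, 2 rose (Ighm and Irf4) and 2 fell (Derl3, which is also one of the 35, and Fkbp11). The 12 adipocyte genes summed to 1398 to 12942 FPKM in Stat3 ko glands, 322 to 2107 FPKM in Chi3l1 ko glands and 207 to 749 FPKM in WT glands, and 5 of 12 rose. The macrophage list had 5 of 11 rising, T cells 3 of 11 and fibroblasts 2 of 12, with 0 falling in each. Of 8 B cell genes, 4 were tested and 2 rose. These 4 averaged 0.419 to 0.615 FPKM in WT glands, so a fall could hardly have been called. The 8 summed to 438 and 150.5 FPKM in Stat3 ko 2 and 3, 13.993 and 3.39 FPKM in Stat3 ko 1 and 4. WT glands ran from 1.29 to 4.84 FPKM. T cell genes summed to 531 and 287 FPKM in Stat3 ko 2 and 3, against 75.3 and 44.1 FPKM in 1 and 4. Basal, skeletal muscle and proliferation lists had 0 calls, with median log2 differences of 0.47, 2.07 and -0.53. All 10 muscle genes were positive and all 12 proliferation genes negative. The muscle genes summed to 55.3 to 11566 FPKM in Stat3 ko glands, 41.7 to 9747.5 FPKM in Chi3l1 ko glands and 14.5 to 3158.5 FPKM in WT glands. No marker was at 0 in all libraries of a group.

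Level and epithelial content were set side by side for each library. Of the 35 genes, 24 were lower in both Stat3 ko 1 and 2 than in both Stat3 ko 3 and 4, including 20 of the 21 called genes (the exception was Derl3). Stat3 ko 3 and 4 had epithelial levels of 7.09 and 7.26, in the WT range of 6.96 to 7.57, and Hspa5 at 261 and 240.4 FPKM, against 318 to 408 FPKM in WT glands. With the epithelial level as a covariate, 7 of the 35 genes were called lower (Xbp1, Trib3, Hspa5, Pdia6, Hyou1, Manf and Sec61b), where 2.29% of all tested genes were. The Xbp1 difference was then -1.34, that of Trib3 -1.20 and that of Hspa5 -0.59. A fit without Stat3 ko 1, Stat3 ko 2 and Chi3l1 ko 2, the libraries above 2% mitochondrial share, gave 12 calls lower against WT, where 4.82% of all tested genes were called lower, with Xbp1 at -1.37 and Hspa5 at -0.58. The part of milk gene, immune, adipocyte, muscle and proliferation gene levels in these differences was not tested.

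**Figure D5:**
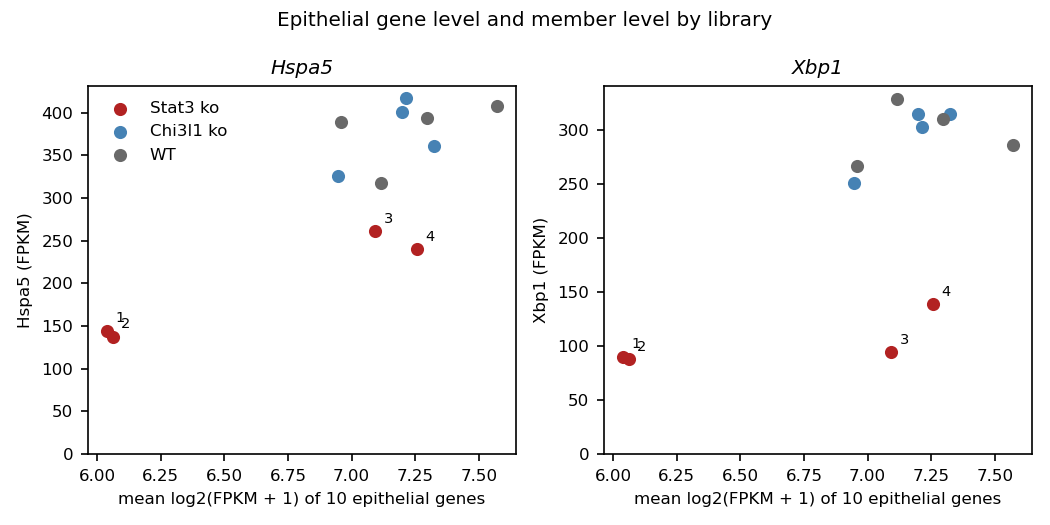
Hspa5 (left) and Xbp1 (right) in FPKM against the mean log2(FPKM + 1) of 10 general epithelial genes, 1 point a library, with the Stat3 ko libraries numbered. Stat3 ko 1 and 2 lie at 6.04 and 6.06 on the horizontal axis, apart from all other libraries, and Stat3 ko 3 and 4 lie within the WT range of 6.96 to 7.57, with both genes lower than in the WT libraries.

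In Chi3l1 ko glands against WT glands, 0 of the 35 genes were called in either direction by limma, and 0 had an unadjusted p under 0.05. Over all 13643 genes 0% were called higher and 0.00733% lower, 1 gene, with 222 at an unadjusted p under 0.05. No gene of the 35 had its 4 Chi3l1 ko libraries all above (1.12% of all tested genes) or all below (1.36%) the WT libraries. The differences of the 35 genes ran from -0.23 (Sec61b) to 0.20 (Dnajb9), with a median of -0.0031, and edgeR and DESeq2 on counts recovered from the FPKM made 0 calls among them too. The intervals were wide enough to leave room for moderate changes: the 95% interval was -0.46 to 0.45 for Hspa5, -0.34 to 0.32 for Xbp1 and -0.42 to 0.24 for Trib3. These intervals and p-values use a spread shared with the Stat3 ko libraries. The median coefficient of variation over the 35 genes was 22.9% in those libraries, 11.1% in Chi3l1 ko glands and 8.26% in WT glands. In the limma fit of only the compared groups, 564 of all tested genes had an unadjusted p under 0.05, and 0 of the 35 were called. All 8 pathway lists also had 0 calls.

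Stat3 ko glands were also set against Chi3l1 ko glands, a comparison that shares the Stat3 ko libraries with the one above. Here 22 of the 35 genes fell and 0 rose, where 8% of all tested genes were called lower and 5.19% higher. The median over the 35 was -0.47. Every Stat3 ko library lay below every Chi3l1 ko library for 24 of the 35 genes (10.2% of all tested genes) and above for 0 (6.85%). Xbp1 differed by -1.53 ± 0.15 (SE) (adjusted p = 0.000186), Trib3 by -1.37 ± 0.15 (SE) (adjusted p = 0.000390) and Hspa5 by -0.99 ± 0.21 (SE) (adjusted p = 0.0137). Sel1l differed by -0.43 ± 0.12 (SE) and Ssr3 by -0.39 ± 0.11 (SE), and both were called, while Derl3 was not (adjusted p = 0.108). The count was 9 without Chi3l1 ko 1 (3.19% of all tested genes called lower), 9 without Chi3l1 ko 3 (3.88%) and 8 without Chi3l1 ko 4 (3.56%). It was 12 without Stat3 ko 1 (7.37%), 11 without Stat3 ko 2 (4.74%), and 14 without WT 1 (6%) or WT 2 (6.41%), which enter only through the shared spread. A fit of only the Stat3 ko and Chi3l1 ko libraries called Hyou1, Xbp1 and Trib3 alone among the 35, where 2.48% of all tested genes were called lower.

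The authors' deposited table for Stat3 ko against WT listed 25 of the 35 genes, of which 20 had an adjusted p under 0.05, all lower. All 25 had an unadjusted p under 0.05 there, the highest 0.0438 for Sel1l. The table does not list every gene, so 20 of 25 is not a share of the genes the authors tested. Canx and Dnajc3 were called here and not in the authors' deposited table, and Ssr3 only in that table. The authors' deposited table for Chi3l1 ko against WT listed 0 of the 35.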

How the data were processed

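All steps up to the deposited tables were the authors'. The tools listed in the submitters' processing notes are STAR, HTSeq, Trimmomatic, limma and edgeR, and the builds mm10 and GRCm38; no version or role is given. RNA was taken with an RNeasy kit and libraries made with NEBNext Ultra II, per the labels' protocols; whether counting used strand is not given in the sources used here. The authors deposited FPKM for every gene and library, with gene length and coordinates, per the file headers. Their comparison tables hold raw counts, signal (counts scaled by a size factor) per library, the authors' log2 fold change and their unadjusted and adjusted p-values, per the file headers.

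The deposited FPKM, multiplied by gene length and 1 total per library solved from the deposited counts, gave whole reads within 0.001 read for 100% of values, and 0 of 55832 deposited counts differed. The FPKM scaling total was 0.926 to 1.14 times the recovered library total. Totals were 16217143 to 22607123 counts.

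Values were tested as log2(FPKM + 1) with limma 3.58.1 in R 4.3.3, with an intensity trend, 1 mean per group over all 12 libraries, and no covariate. A gene entered the test if 4 or more libraries had 1 FPKM or more, and it was called at a two-sided Benjamini-Hochberg adjusted p under 0.05 over all 13643. Fold changes on this scale understate the change of low genes. Alternatives were edgeR 4.0.16 and DESeq2 1.42.0 on recovered counts, median-of-ratios scaling, quantile scaling, a 5 FPKM floor on the mean, no filter, a pseudocount of 0.1, only the compared groups, an epithelial covariate, no library with over 2% mitochondrial counts, and each library left out. The limma fit was also run on simulated counts with the same dispersion for every gene and group. That run does not show how the fit handles the uneven spread between these groups. The 35 genes, the other lists and the tests were chosen with earlier results of these data known. From the pathway and marker lists, up to 4 genes with the lowest adjusted p in Stat3 ko against WT were eligible to be named. Gene names that had become dates (27) were set back by identifier. Promoter sequences are from RefSeq (GRCm38.p6); 30 of 35 genes matched.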

Additional observations from a re-analysis of the deposited data

Results flagged for a closer look

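Of 105 groups of 4 libraries looked at (35 genes in 3 groups), 5 held a library far from its 3 companions. Distance was measured on the log2(FPKM + 1) scale, as the gap to the nearest library divided by the range of the group. Chance gives about 1 in 20 such groups.

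Xbp1 stood out in both knockouts. In Stat3 ko glands, Stat3 ko 4 was at 139 FPKM and the other 3 libraries at 87.9 to 94.4 FPKM, a gap of 0.845 of the range. In Chi3l1 ko glands, Chi3l1 ko 2 was at 250.3 FPKM and the others at 303 to 314 FPKM, a gap of 0.830 of the range. Chi3l1 ko 2 is also the Chi3l1 ko library with over 2% mitochondrial counts.

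Calu in Stat3 ko glands was at 41.4 FPKM in Stat3 ko 2 and at 62.5 to 66.7 FPKM in the others, a gap of 0.865 of the range. Erp44 in WT glands was at 25.0 FPKM in WT 3 and at 28.5 to 28.9 FPKM in the others, a gap of 0.897 of the range. Sel1l in WT glands was at 25.3 FPKM in WT 1 and at 21.5 to 22.0 FPKM in the others, a gap of 0.857 of the range.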

How the results depend on the processing

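In Stat3 ko against WT glands, 21 genes were called lower. The count was 12 with no filter, 6 in a fit of only the compared groups, 12 without the libraries over 2% mitochondrial counts and 7 with the epithelial covariate. Over all tested genes the share called lower was 2.25%, 2.62%, 4.82% and 2.29% in these 4 fits, and 8.39% in the fit reported. The count ran from 8 to 23 with 1 library left out. In Stat3 ko against Chi3l1 ko glands, 22 genes were called lower. The count was 12 with no filter, 3 in a fit of only the compared groups, 14 without the libraries over 2% mitochondrial counts and 9 with the epithelial covariate, where 2.2%, 2.48%, 6.08% and 3.15% of all tested genes were called lower, in the same order. It was 8 to 22 with 1 library left out. With no filter 31268 genes are adjusted for instead of 13643, and the fits of compared groups or fewer libraries have fewer samples; otherwise the cause was not tested. The other 6 alternatives gave 16 to 23 genes lower against WT and 15 to 23 against Chi3l1 ko glands. No alternative called a gene higher, none called a gene in Chi3l1 ko against WT glands, and no call changed sign. Under every alternative run, Pdia6, Hyou1, Manf, Xbp1, Trib3 and Sec61b were called lower against WT, and the other 15 calls were lost in at least 1. Over all genes, edgeR called 1644 higher and 1311 lower in Stat3 ko against WT glands, where limma called 766 higher and 1145 lower, and 1282 higher and 1200 lower against Chi3l1 ko glands, where limma called 708 and 1091. DESeq2 called 2570 higher and 1830 lower against WT and 2291 higher and 1740 lower against Chi3l1 ko glands. The fit of only the compared groups called 148 higher and 358 lower against WT and 166 higher and 339 lower against Chi3l1 ko glands, and the epithelial covariate 116 and 313 against WT and 179 and 430 against Chi3l1 ko glands. No paired analysis was possible because the labels give no pairing, litter or batch. With 4 libraries a group, precision is limited to the intervals given.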

Other observations

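Of 27 cytosolic and mitochondrial chaperones, 2 fell and 2 rose in Stat3 ko against WT glands (limma, adjusted p under 0.05), with a median log2 difference of -0.24. Over all tested genes 8.39% were called lower and 5.61% higher, so the list's counts lie near those of all genes, and the 4 genes are given as values only. The heat-inducible Hsp70 genes fell: Hspa1b averaged 16.3 FPKM in Stat3 ko glands and 43.1 FPKM in WT glands (log2 difference -1.42 ± 0.30 (SE), adjusted p = 0.014), and Hspa1a 2.45 FPKM in Stat3 ko glands and 5.59 FPKM in WT glands (-0.99, adjusted p = 0.0354). These 2 genes are near-identical copies, and counting could have divided their reads wrongly. Hspb8, a small heat shock protein of muscle and other tissues, rose by 1.44 ± 0.39 (SE) (adjusted p = 0.034), and Dnajb4, a cytosolic Hsp40, rose by 0.64 ± 0.19 (SE) (adjusted p = 0.046).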
